A study of Mus musculus with 20 samples.

Results

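The measurements describe how dexamethasone (Dex, a synthetic glucocorticoid) changed the transcripts of LPS-treated mouse macrophages in which the chromatin remodelling ATPase Brg1, the product of Smarca4, had been silenced. The members were 7 of the 20 RNA sequencing samples of the series: the 4 labelled Brg1 siRNA with Dex+LPS and the 3 labelled Brg1 siRNA with LPS, compared over 12061 of the 17787 genes in the deposited table, those in which 3 or more samples reached a normalized count of 10. The cells were bone marrow-derived macrophages of male C57BL/6J mice, grown from Ficoll-purified marrow over 7 days with L929 supernatant. Every one of the 7 samples received 50 nM of 1 siRNA product against Brg1 for 48 h, and all received 100 ng/ml LPS (lipopolysaccharide, a bacterial cell wall component) for the last 6 h, alone with 0.1% ethanol or with 1 µM Dex. The comparison therefore reads Dex on top of LPS, and unstimulated cells (3 samples with Brg1 siRNA and vehicle) and the same comparison with control siRNA (3 samples with LPS, 4 with Dex+LPS) are given beside it. Whether replicates came from separate animals or cultures is not in the labels, and p-values here therefore rest on the sample-to-sample spread alone, which may be technical. The labels give 4 Dex+LPS replicates, the design text 3.

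Glucocorticoids bind the glucocorticoid receptor, a nuclear receptor that raises the transcription of some genes from its own DNA elements and lowers that of many inflammatory genes whose transcription is driven by NF-kappaB, AP-1 and interferon regulatory factors. LPS is sensed by a Toll-like receptor, which induces cytokines and chemokines and, through secreted type I interferon, a further layer of antiviral genes. Brg1 is the catalytic subunit of the BAF complex, which moves nucleosomes and is known as a partner of the glucocorticoid receptor.

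Smarca4 (ENSMUSG00000032187, chromosome 9, 21616169 to 21704230 in GRCm38) had normalized counts of 621, 559.5 and 600.1 with LPS and 459.8, 414, 442 and 518 with Dex+LPS, against 1745 to 2989.8 in the 7 control siRNA samples of the same treatments. The silenced level was low in all 7 samples and was lower again with Dex, by 0.38 on the log2 scale (SE 0.0794, limma adjusted p = 0.00084), a call that ended when the samples were scaled by their plain library totals (log2 -0.04). Nr3c1, which encodes the glucocorticoid receptor, read 5276, 5253 and 5355 with LPS and 5023, 5072, 4756 and 4874 with Dex+LPS, and did not pass (log2 -0.10, limma adjusted p = 0.561). Libraries held 15.43 to 17.64 M reads with LPS and 13.86 to 16.74 M with Dex+LPS. The deposited normalization left totals of 19.23 to 20.05 M normalized counts with LPS, 15.46 to 15.86 M with Dex+LPS and 12.26 to 12.35 M with vehicle. With plain library totals the median gene rose by 0.31 between LPS and Dex+LPS, a shift of 0.33 from the authors' scaling, where it stood at -0.02. Changes are given relative to the authors' scaling, and those within about that shift are named as depending on it.

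Dex changed the expression of 5352 of the 12061 genes in the Brg1-silenced macrophages by limma at an adjusted p under 0.05, or 44.4%. Of these, 2575 were higher (21.3% of the genes tested) and 2777 were lower (23.0%). Among the genes called, 791 rose and 715 fell by at least 1 on the log2 scale, and 74 rose and 60 fell by at least 3. The values of the 3 LPS and the 4 Dex+LPS samples did not overlap for 5646 genes (46.8%), among them 4867 of the genes called. With plain library totals 5388 were higher and 1232 lower, so the higher share of the calls went from 48.1% to 81.4%: all 2575 rises were called again, and 1232 of the falls. In the authors' deposited table, which carries their own adjusted p-values for this comparison, 2472 genes were higher and 2812 lower, with 5090 calls shared with limma and 0 in the opposite direction.

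**Figure D1:**
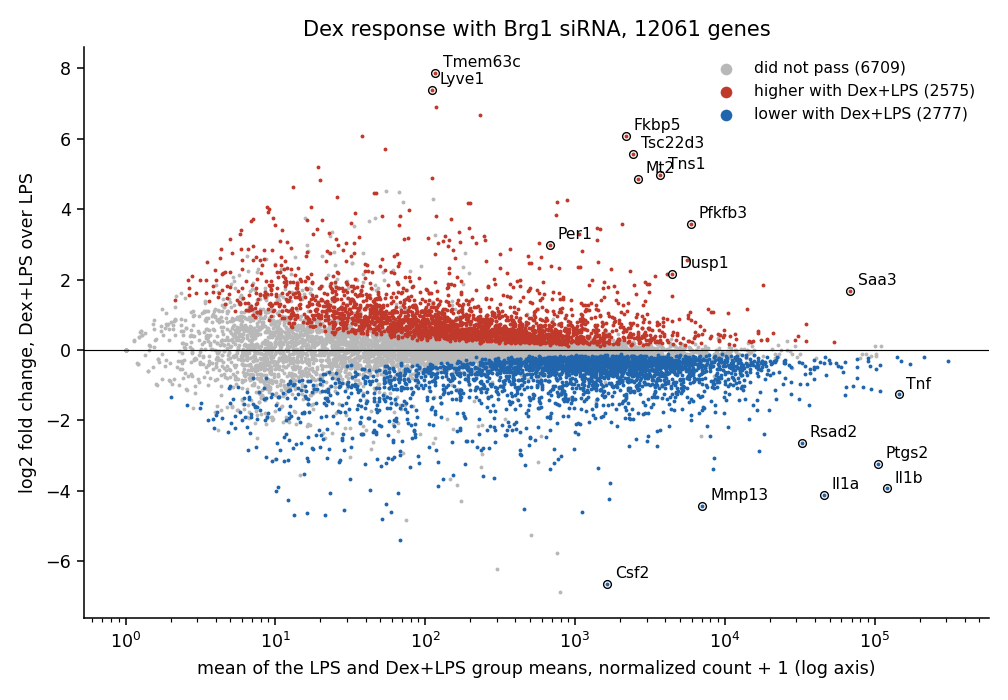
Each point is 1 of 12061 genes. The horizontal axis is the mean of the 2 group means in normalized counts plus 1 on a log axis and the vertical axis the log2 fold change of Dex+LPS over LPS with Brg1 siRNA. Red marks the 2575 genes called higher, blue the 2777 called lower and grey those that did not pass; the circled names span from Tmem63c (7.86) to Csf2 (-6.64).

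The largest rises were in Tmem63c, a membrane protein of the TMEM63 family, Lyve1, a hyaluronan receptor of lymphatic endothelium and of some tissue macrophages, Fzd4, a Wnt receptor, and Prss16, a serine protease. The largest falls were in Csf2, the gene of the growth factor GM-CSF, and Il1bos, an antisense transcript at the Il1b locus. Promoters of the genes with the largest changes that had an entry are shown so that the response can be set beside the sequence at the start site. They are 300 bases from 250 before to 50 after a RefSeq start in GRCm38.p6, and capitals mark the only match to any of the 5 motifs searched, an interferon response core (GAAANNGAA) in Csf2.
Tmem63c, chr12:87021090-87021389, + strand: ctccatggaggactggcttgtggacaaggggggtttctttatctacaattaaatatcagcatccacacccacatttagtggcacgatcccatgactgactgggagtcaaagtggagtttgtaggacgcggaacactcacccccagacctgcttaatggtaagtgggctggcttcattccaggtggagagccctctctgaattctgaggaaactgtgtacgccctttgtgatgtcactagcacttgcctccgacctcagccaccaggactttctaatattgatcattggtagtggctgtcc
Fzd4, chr7:89404116-89404415, + strand: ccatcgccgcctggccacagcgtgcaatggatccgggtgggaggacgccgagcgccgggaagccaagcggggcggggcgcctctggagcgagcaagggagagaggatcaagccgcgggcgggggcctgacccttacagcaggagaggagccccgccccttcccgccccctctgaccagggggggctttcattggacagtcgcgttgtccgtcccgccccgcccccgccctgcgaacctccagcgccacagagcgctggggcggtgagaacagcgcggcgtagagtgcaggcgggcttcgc
Csf2, chr11:54249850-54250149, - strand: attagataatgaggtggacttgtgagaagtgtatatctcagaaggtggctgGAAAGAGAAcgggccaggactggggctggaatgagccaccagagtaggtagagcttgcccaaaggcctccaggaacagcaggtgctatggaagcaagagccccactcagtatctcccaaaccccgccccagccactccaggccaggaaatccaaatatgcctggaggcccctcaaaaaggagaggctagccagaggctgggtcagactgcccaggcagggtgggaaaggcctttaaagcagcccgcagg
Il1bos, chr2:129369652-129369951, + strand: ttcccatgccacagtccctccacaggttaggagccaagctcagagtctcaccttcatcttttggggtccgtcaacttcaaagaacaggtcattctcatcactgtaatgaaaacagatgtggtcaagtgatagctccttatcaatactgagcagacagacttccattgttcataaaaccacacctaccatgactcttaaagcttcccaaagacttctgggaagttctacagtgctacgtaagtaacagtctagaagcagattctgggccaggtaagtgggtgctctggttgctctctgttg
The RefSeq start of Csf2 lies 232 bases upstream of the start of its GENCODE gene model, and those of Tmem63c, Fzd4 and Il1bos lie within 0, 11 and 5 bases of theirs. The other motifs, searched on both strands and allowed to overlap, were the AP-1 site TGANTCA, the TATA box TATAAA, the NF-kappaB consensus and the glucocorticoid response element. No match says only that these letters are not in the window. Over the 9368 tested genes with a promoter entry, the first listed for each symbol, the interferon response core was found in 10.6% of the promoters of genes that fell, in 6.10% of those that rose and in 7.49% of all. Among falls of at least 1 on the log2 scale it was in 15.8%, and the TATA box in 13.5% against 6.16% among rises of that size and 6.85% of all. AP-1 sites stood at 8.97% and 5.37% against 5.12% of all, and the NF-kappaB consensus at 13.2% and 9.48% against 9.98%. The glucocorticoid response element occurred in 10 of the 9368 windows, 3 of them among the rises and 2 among the falls.

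Tmem63c (chromosome 12, 87021340 to 87090043) was listed at 0 in all 3 LPS samples and read 214, 237, 223 and 249 with Dex+LPS, at least 192-fold higher when LPS is set to a floor of 3 reads over the group. Lyve1 read 1.25, 0 and 0 with LPS, from a single read, and 231, 236, 229 and 185 with Dex+LPS, a ratio of 543 with a 95% counting interval of 97.1 to 21463. Fzd4 rested on 3 reads with LPS and read 221, 253, 221 and 232 with Dex+LPS (ratio 192, interval 65.4 to 932). These genes were nearly silent with LPS alone and the groups did not overlap. Prss16 went from 1.25, 2.49 and 10.2 to 474, 479, 454 and 433. The vitamin D receptor Vdr, also resting on 3 reads with LPS, reached 113, 113, 98.3 and 92.3 (ratio 85.7, interval 29.1 to 417). With Brg1 siRNA and vehicle, Prss16 stood at 31.9, 36.8 and 53.7 and the other 4 at 5.12 or less, so all 5 stood far above the unstimulated level with Dex+LPS.

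Classical glucocorticoid targets rose steeply. Fkbp5, a chaperone that restrains the glucocorticoid receptor, read 66.1, 49.8 and 73.9 with LPS and 4397, 4119.5, 4259 and 4456 with Dex+LPS (log2 fold change 6.09, SE 0.17, limma adjusted p = 9.61e-15). Tsc22d3, which encodes the anti-inflammatory protein GILZ, read 93.5, 116 and 93.2 against 4635, 4667, 4740.2 and 5103 (5.56, SE 0.12, limma adjusted p = 2.19e-16). The Dex+LPS values of both genes were tight and far from the LPS values. They differed in where vehicle stood: Fkbp5 was at 95.7, 75.1 and 67.4 without LPS, whereas Tsc22d3 was at 1650.4, 1493 and 1554, so the LPS samples lay below unstimulated cells and the Dex+LPS samples above them. The actin-linked adhesion gene Tns1 followed the same course, from 209, 280.4 and 192 to 6623, 6947, 7090 and 7935 (4.98, SE 0.18), with 1276 to 1467 in vehicle. The clock gene Per1 (146, 161 and 144 to 1174, 1161, 1179 and 1291) and the transcription factor Klf9 (38.7, 24.9 and 31.8 to 284, 226, 254 and 234) rose by 2.99 and 2.95 on the log2 scale. Dusp1, a phosphatase of MAP kinases, rose from 1408, 1575 and 1848 to 7125, 7744, 8099 and 5834 (2.16, SE 0.13, limma adjusted p = 1.46e-10).

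Of 38 tested glucocorticoid-induced genes, 18 were called higher and 9 lower, beside 21.3% and 23.0% of all genes tested. The lower share was thus near that of all genes. The median was 0.48 beside -0.02 over all genes. Besides those named, the metallothioneins Mt1 (305, 324 and 311 to 3428, 3215, 3546 and 5029) and Mt2 (169.6, 182 and 160.3 to 4519.6, 4128, 4554 and 7207), which bind zinc, rose by 3.57 and 4.86. The efferocytosis receptor Mertk went from 535, 496 and 559 to 1926, 1970, 2013 and 1802 (1.86), and the kinase Sgk1 from 1837, 1804 and 1677 to 2716, 3252, 3142 and 2646 (0.72). Zbtb16 was listed at 0 in every LPS sample and read 5.72, 13.4, 19.2 and 25.9 with Dex+LPS, at least 13.8-fold higher at the same floor. The 9 members that fell included genes that LPS also induces. Zfp36, which destabilises cytokine mRNAs, went from 6609, 8652 and 5434 to 1015, 1189.6, 1521 and 2762 (fell by 2.17 on the log2 scale, limma adjusted p = 7.43e-06), and the NF-kappaB inhibitor Nfkbia from 19465, 19519.8 and 18713 to 14017, 13293, 13931 and 15239 (fell by 0.45), a call that plain library totals ended (limma adjusted p = 0.207). Anxa1, an anti-inflammatory annexin, rose by 0.26, a size less than the shift between scalings, with the call kept in 19 of 19 alternatives. Il1r2 and Cd163 stayed under the filter at 3.74 to 11.1 and 0 to 4.27.

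**Figure D2:**
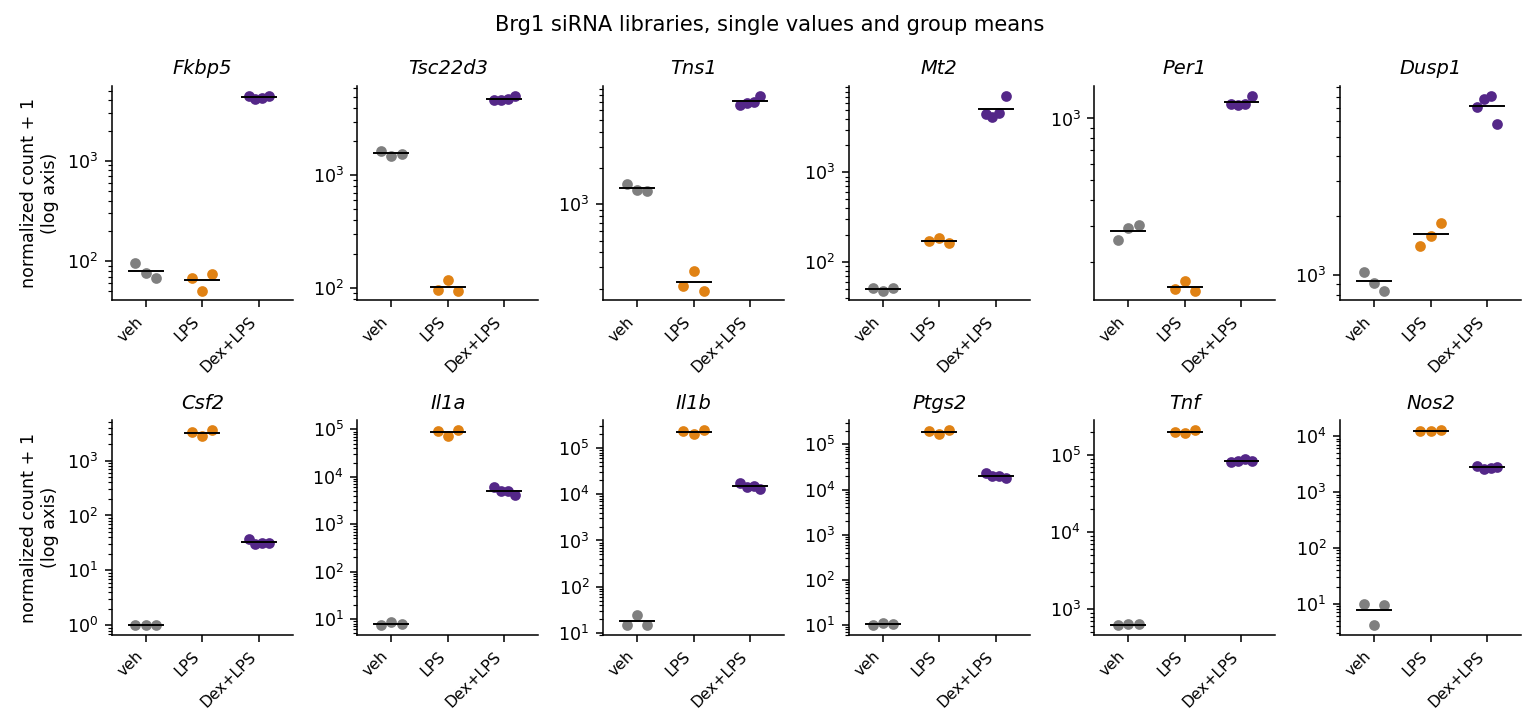
Normalized counts plus 1 (log axis) of 12 genes in each Brg1 siRNA sample with vehicle (grey, n = 3), LPS (orange, n = 3) and Dex+LPS (purple, n = 4); bars are group means. In the upper row all Dex+LPS samples lie above all LPS samples, and in the lower row below them, while still above vehicle.

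Receptors and regulators of other families moved both ways, as did all genes tested (21.3% higher and 23.0% lower). Among 19 circadian clock genes 9 rose and 3 fell: Per2, a repressor of the clock as Per1 is, went from 8.73, 6.23 and 3.41 to 106, 80.3, 87.6 and 107 (3.82), and Cry2 rose by 1.64. Of 10 Kruppel-like factors 4 rose, with Klf2 (23.7, 41.1 and 15.9 to 198, 192, 202 and 262) and Klf4 (176, 153 and 170.5 to 693, 644, 596 and 654) beside Klf9, and Klf6 fell by 1.56. Of 35 cytokine receptors 8 were higher, a share near that of all genes, and 18 lower, or 13 higher and 14 lower with plain library totals. The interleukin-6 receptor Il6ra went from 46.1, 36.1 and 34.1 to 364, 332, 350.5 and 428 (3.22) and the leukemia inhibitory factor receptor Lifr from 2.49, 18.7 and 7.96 to 116, 198, 75.9 and 186 (3.99), whereas Il2ra fell by 3.20. In vehicle Il6ra stood at 621 to 643, above its Dex+LPS samples, and Lifr at 44.3 to 83.7. The macrophage transcription factor Cebpa rose by 2.20 and Maf fell by 1.92 on the log2 scale. Named among the largest rises or gains in counts were 3 acute phase genes, whose products are secreted in inflammation: Hp rose from 22.4, 18.7 and 15.9 to 361, 307, 374 and 413, Lcn2 from 1551, 1579 and 1734 to 9841, 9009, 9484 and 9742, and Saa3 from 32065, 32176 and 34498 to 108566, 103399, 102680.5 and 104882. Together with the kinase Pfkfb3, which makes an activator of glycolysis (914, 879.8 and 913 to 11782, 10714, 10467 and 10717, log2 3.59, SE 0.0763), Saa3 and Lcn2 were among the 10 called genes with the largest gains in normalized counts.

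Cytokine genes fell, in an order of size that differed by more than 5 on the log2 scale between members. Of 24 interleukin, colony-stimulating and TNF family cytokines, 19 were lower and 0 higher, with a median of -1.39, beside 23.0% lower and 21.3% higher among all genes. Csf2 (chromosome 11, 54247271 to 54249667) read 3314, 2842 and 3572 with LPS and 35.5, 29, 31 and 30.5 with Dex+LPS (fell by 6.64 on the log2 scale, SE 0.22, limma adjusted p = 8.65e-14), and was listed at 0 in all 3 vehicle samples. The interleukin-1 genes, ligands of a shared receptor, followed: Il1a from 91185, 73627 and 95997 to 5999.8, 4940.1, 5059.7 and 4194 (fell by 4.11), and Il1b from 230576, 200708 and 243748 to 17112, 14198, 14954 and 12971 (fell by 3.93). All of these values were above vehicle, where Il1a stood at 6.38 to 7.82 and Il1b at 13.6 to 23.5. Il1bos fell with Il1b, from 146, 101 and 147 to 4.58, 7.80, 0 and 0.923, and its annotated exons overlap those of Il1b, on the opposite strand, over 0.839% of their bases. The strand counted is not given in the sources used here, so reads in that stretch cannot be told apart.

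Subunits of the heterodimeric interleukins that drive T cells fell by 2.87 (Il12b, 29508, 25683 and 33583 to 4660.3, 3709, 4119 and 3654) and 3.37 (Il23a, 1203, 987 and 1548 to 113, 103, 162 and 102). Il6 fell by less, from 9108, 7337 and 10314 to 3903, 3203, 3361 and 2682 (1.44 on the log2 scale, limma adjusted p = 1.9e-08), and Tnf less still, from 203236, 195944 and 212568 to 83022, 84451, 88527 and 84031 (log2 -1.26, SE 0.0528). Tnf thus kept a mean of 85008 ± 2422 (SD, n = 4), against 616 to 642 in vehicle. The anti-inflammatory cytokine Il10 was low throughout, at 94.8, 72.3 and 81.8 with LPS and 42.3, 40.1, 37.4 and 31.4 with Dex+LPS (fell by 1.11). Csf3, the gene of G-CSF, overlapped between the groups at 133, 189 and 133 against 139.6, 118, 130.4 and 194, and missed the threshold (log2 -0.07, limma adjusted p = 0.828). Ifnb1, the type I interferon gene, fell from 51.1, 44.9 and 42.1 to 3.43, 2.23, 3.21 and 11.1 (fell by 3.17).

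Of 24 chemokine genes 17 fell and 1 rose, with a median of -1.19, beside 23.0% lower and 21.3% higher among all genes. The monocyte attractants Ccl7 (579.8, 502 and 521 to 49.2, 44.6, 39.5 and 37.9) and Ccl2 (1843, 1609 and 1712 to 304, 222, 241 and 227) fell by 3.62 and 2.80, and Ccl22, which attracts T cells, by 3.38. Abundant members fell by about 1 on the log2 scale: Ccl3 from 153429.7, 134585 and 163073 to 70809.8, 68528, 71603 and 60067 (log2 -1.15), Ccl4 by 1.39 and Cxcl2 by 1.10. Ccl5 fell by 0.67, and Cxcl1, at 32333, 29929 and 35837 against 23283, 23492, 23731 and 21405, did not pass although its samples did not overlap (limma adjusted p = 0.104). It passed in 4 of 19 alternatives, the edgeR and DESeq2 tests among them. Receptors fell as well, 9 lower and 0 higher of 17 chemokine, formyl peptide and complement receptors, among them Ccr3 (113, 122 and 132 to 10.3, 10, 4.27 and 3.69, fell by 4.05).

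Among enzymes and secreted effectors that LPS induces, the cyclooxygenase gene Ptgs2 went from 194072, 168850.2 and 206869 to 23125, 20019, 20306 and 17798 (fell by 3.23), and the collagenase Mmp13 from 13960.3, 11899.5 and 14667 to 737, 629.9, 575 and 572 (fell by 4.43). Serpinb2, a plasminogen activator inhibitor, fell by 4.61, with 11.2% of its 31-base words shared with other genes. The inducible nitric oxide synthase Nos2 read 12507, 12129 and 12732 against 2947, 2552, 2708 and 2843 (fell by 2.17). Other products of the same response changed by less. Acod1, which makes itaconate, stood at 194215, 196339 and 192867 against 146524, 143382, 148879 and 155389 (log2 -0.39) and the prostaglandin synthase Ptges at 5144, 5266 and 5294 against 4441, 3785, 4151 and 4205 (log2 -0.34). Both calls ended with plain library totals (limma adjusted p = 0.528 and 0.969), and that of Ptges in 5 of 19 alternatives in all, some of them leaving out 1 replicate. Over the lists, 32 of 44 primary LPS response genes were lower and 5 higher (median -0.87), and 20 of 31 secondary response genes were lower and 6 higher (median -0.99). With plain library totals these were 26 lower and 6 higher, and 18 lower and 6 higher. Over all genes tested, 23.0% were lower and 21.3% higher with the authors' scaling. The secondary list's summed normalized counts fell from between 348532 and 371052 to between 299854 and 314398. As a share of all normalized counts it rose, opposite to its median, from between 1.81% and 1.85% to between 1.91% and 2.03%.

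Lists of transcription factors and signalling genes linked to the LPS response had more members lower than higher, beside 23.0% and 21.3% of all genes tested. NF-kappaB subunits and inhibitors were lower in 17 of 24 and higher in 2, by a median of -0.45 (11 lower, 5 higher and -0.12 with plain library totals), with Rel (fell by 1.15) and Nfkb1 (fell by 0.95) among them. AP-1, ATF and immediate early factors were lower in 16 of 25 and higher in 2. Nr4a3 (261, 179 and 284 to 38.9, 14.5, 6.41 and 25.9) fell by 3.67 and Atf3 (5421, 4848 and 5252 to 816, 811, 1007 and 812) by 2.59. Atf3 stood at 7519 to 8069 in vehicle, so its LPS samples already lay below unstimulated cells. The list made up 0.185% to 0.186% of the counts with vehicle and 0.168% to 0.190% with LPS. The 2 of that list that rose were Jun (163, 207 and 152 to 631, 618, 665 and 841, log2 1.98) and Fos (29.9, 54.8 and 29.6 to 86.9, 109, 96.2 and 93.3, log2 1.37). Jun stood at 899 to 939 in vehicle, above its Dex+LPS samples. Of 27 STAT, SOCS and IRF genes 18 fell and 1 rose, with a median of -0.83 (16, 5 and -0.49 with plain library totals). Cish, a feedback inhibitor of cytokine receptors, went from 3254, 3500.4 and 2776 to 174, 146, 160.3 and 192 (fell by 4.23), Stat5a fell by 2.04, Irf4 by 1.99 and Irf1 by 1.20. Stat5a shares 11.7% of its 31-base words with other genes, which leaves its count uncertain.

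Among lists with at least 10 tested members, interferon-stimulated genes had the largest share lower: 53 of 56 fell and 2 rose, by a median of -1.22. The antiviral genes Rsad2 (58762, 50488 and 60029.7 to 9494, 9053, 9501 and 8044, fell by 2.64), Cmpk2 (15643, 13507 and 16231 to 2001, 1712, 1870 and 1644, fell by 3.06) and Mx1 (6271, 6056 and 6131 to 961, 837, 839.9 and 1105, fell by 2.73) led them after Ifnb1. Ifit1 fell by 1.14 and the interferon transcription factor Irf7 by 0.87. Named after their values were seen, the 2 that rose were Ly6a (0.68) and Ly6e (0.44), and Lgals3bp did not pass. Some members ended below the unstimulated level: Irf7 read 5336, 5605, 5984 and 6033 with Dex+LPS against 9322, 9031 and 8870 with vehicle, while Rsad2 with Dex+LPS stayed above its 4161 to 4666 in vehicle.

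**Figure D3:**
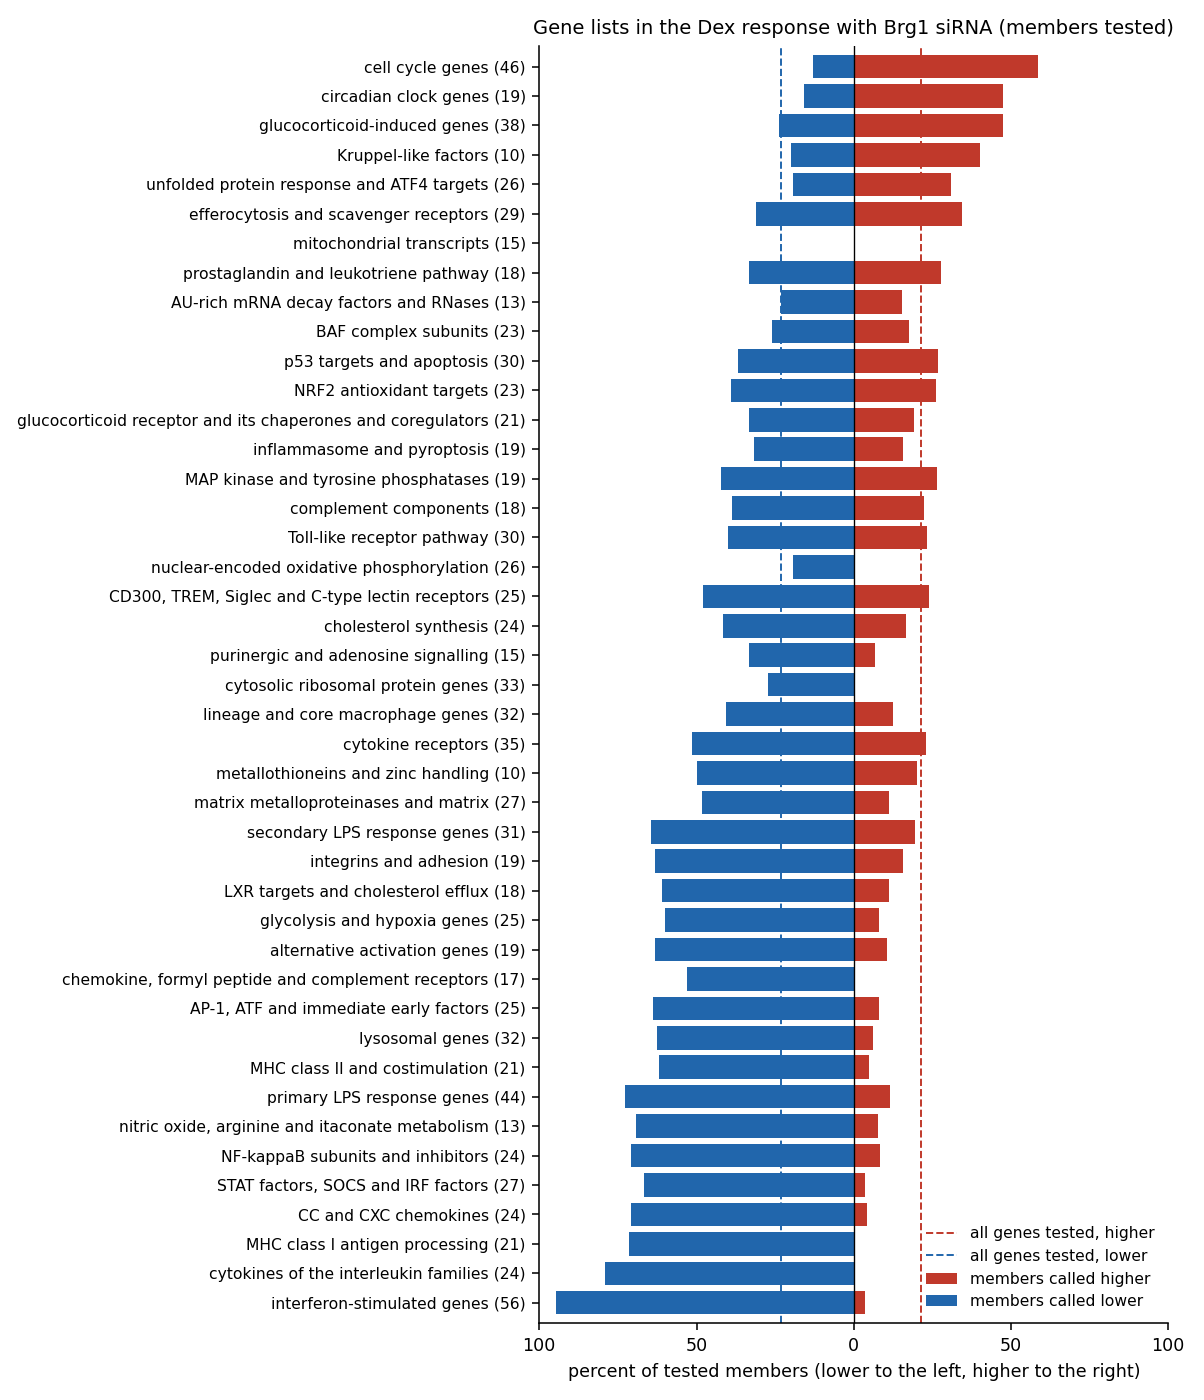
Percent of the tested members of 43 gene lists with at least 10 tested members (their number in brackets) called lower (blue, to the left) and higher (red, to the right) with Dex+LPS, ordered by the difference of both shares. Dashed lines mark all genes tested (23.0% lower, 21.3% higher); interferon-stimulated genes stand at the foot and cell cycle genes at the head.

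Antigen presentation and costimulation fell, beside 23.0% lower and 21.3% higher among all genes tested. Of 21 MHC class II and costimulatory genes 13 fell and 1 rose, by a median of -0.78 (11, 4 and -0.45 with plain library totals), with Cd86 going from 459, 395 and 479.7 to 93.8, 89.2, 102 and 107 (fell by 2.17) and Cd40 from 39973, 38519.9 and 38951 to 15725, 15336, 16621 and 17969 (fell by 1.26). Cd83 read 532, 1900.4 and 344 against 43.5, 14.5, 82.3 and 659, overlapped between the groups and did not pass (limma adjusted p = 0.0616). MHC class I processing genes were lower in 15 of 21, as the peptide transporter Tap1 (fell by 1.14), although with plain library totals 6 were lower and 3 higher. Pattern receptors moved both ways: Cd180, an inhibitor of LPS sensing, fell from 6422, 5543 and 6353 to 1265, 1323, 1330.4 and 1156, the beta-glucan receptor Clec7a fell by 2.30 and the activating receptor Cd300e by 2.46, whereas Trem1 rose from 41.1, 54.8 and 35.2 to 286, 256, 278 and 256 and the nucleic acid receptor Tlr13 by 1.09. Tlr13 rose from between 3626 and 3919 to between 7102 and 8292, below its 12062 to 12853 in vehicle. Among 29 efferocytosis and scavenger receptors 10 rose and 9 fell (17 and 6 with plain library totals), with a median of 0.01 near the -0.02 of all genes. Havcr2 (1.07) and Cd300lf (1.52) were higher beside Mertk, and the scavenger receptor Olr1 was lower (284, 262 and 298 to 26.3, 30.1, 16 and 23.1). Itga5, a fibronectin receptor subunit, fell by 1.42.

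Cell cycle genes rose in 27 of 46 and fell in 6, beside 21.3% higher and 23.0% lower among all genes tested. Their median was 0.75, and Bub1b, among those that rose, stayed at low values. The spindle checkpoint kinase Bub1b went from 6.23, 15 and 14.8 to 41.2, 68, 37.4 and 36.9 against 191, 175 and 151 in vehicle. The 6 that fell, Mki67, Pcna and Ccne1 among them, included regulators of entry into the cycle: the cyclin Ccnd2 (2684, 2192 and 2946 to 252, 231, 291 and 242, fell by 3.35), the inhibitor Cdkn1a (54650.4, 53071 and 56587 to 18712, 18606, 18386 and 18381, fell by 1.56) and the repressor E2f8 (fell by 1.88). As a share of all normalized counts the list fell from between 0.355% and 0.373% to between 0.192% and 0.195%, opposite to its median. Most of the summed counts, 68274 to 74741 with LPS and 29649.6 to 30962 with Dex+LPS, were those of Cdkn1a. With plain library totals 33 members rose and 5 fell.

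Among metabolic lists, 15 of 25 glycolysis and hypoxia genes fell and 2 rose, by a median of -0.47 (-0.14 with plain library totals), as Slc16a3, the lactate exporter (741, 789 and 665 to 219.6, 216, 254 and 299, fell by 1.57), and Hk2 (fell by 1.20), with Pfkfb3 rising against them. With plain library totals 8 were lower and 7 higher. Of 24 cholesterol synthesis genes 10 fell and 4 rose, against 2 and 10 with plain library totals. Of 32 lysosomal genes 20 fell and 2 rose, by a median of -0.18, and plain library totals turned this into 14 higher and 1 lower (median 0.15). The protease Ctsc, at 13490.2, 12829 and 14266 against 2714, 2579, 2541 and 2096, fell under both scalings. LXR targets (11 lower, 2 higher of 18, or 4 and 4 with plain library totals) included the cholesterol exporter Abcg1, which fell by 1.60. The integrins (12 lower, 3 higher of 19) and BAF subunits (6 lower, 4 higher of 23) turned to 4 lower and 5 higher, and 0 lower and 11 higher, with plain library totals. Nuclear-encoded oxidative phosphorylation (5 lower, 0 higher of 26) and ribosomal protein genes (9 lower, 0 higher of 33) stood at 0 lower with 13 and 4 higher under that scaling. With the authors' scaling the lower shares of the BAF, oxidative phosphorylation and ribosomal lists were near the 23.0% of all genes tested. The higher share of BAF subunits was near the 21.3% of all genes.

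In normalized counts, the 10 called genes with the largest losses (Ptgs2, Il1b, Tnf, Il1a, Ccl3, Cxcl2, Fth1, Sqstm1, Clic4 and Lpl) made up 7.80% to 8.61% of each LPS sample and 3.99% to 4.39% of each Dex+LPS sample, against 2.71% to 2.78% with vehicle. Fth1, ferritin heavy chain, is among them through its size, and its call was lost or turned in 11 of 19 alternatives. The 10 with the largest gains went from 0.888% to 0.929% to between 2.18% and 2.27%. Beside Saa3, Pfkfb3 and Lcn2 they included the immune RNA AW112010 (8218, 7045 and 8040.5 to 29699, 29610.5, 28043 and 24774), the cathepsin Ctsl, the oxidase subunit Ncf1 (26325, 25815 and 26463 to 42746, 43208, 44529.7 and 45078) and the adaptor Sla.

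With control siRNA, Dex changed 48.7% of the genes (2827 higher and 3041 lower), and 4223 genes were called in the same direction with either siRNA, 78.9% of the calls with Brg1 siRNA and 72.0% of those with control siRNA. A further 25 were called in opposite directions. Across the 12061 genes the log2 fold changes of both comparisons, which share no samples, had a Pearson r of 0.775 and a Spearman rho of 0.775, as a description over genes, which are not independent replicates. The difference of the Dex response between siRNAs passed for 479 genes by limma (3.97%), 332 of them positive (2.75%, a smaller fall or a larger rise with Brg1 siRNA) and 147 negative (1.22%). Of the 332, 263 were called lower and 33 higher with control siRNA, and of the 147, 119 were called higher and 19 lower with control siRNA. With Brg1 siRNA the 332 comprised 186 called lower, 85 called higher and 61 that did not pass.

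Interferon-stimulated genes made up 39 of the 332 positive differences. In 39 of the 56 tested it was positive and in 0 negative, beside 2.75% and 1.22% of all genes, and the response lay above the control siRNA value in 55 of 56. The median response was -1.22 with Brg1 siRNA and -1.89 with control siRNA, and the median difference 0.66. Unstimulated levels differed too. The list made up 1.51% to 1.56% of the counts with Brg1 siRNA and vehicle, against 0.994% to 1.23% with control siRNA and vehicle. With LPS it was 3.07% to 3.29% against 2.86% to 2.92%, and with Dex+LPS 1.75% to 1.85% against 1.01% to 1.20%. The part of the unstimulated level in the difference was not tested. Rsad2 read 45919, 47005 and 46163 with control siRNA and LPS and 3137, 1972, 2706 and 2559 with Dex+LPS, so that the Dex+LPS samples with Brg1 siRNA (8044 to 9501) all lay above these (difference 1.54, SE 0.17, limma adjusted p = 3.97e-05). Cxcl10, an interferon-induced chemokine, fell to between 5259 and 6256 with Brg1 siRNA and to between 1374 and 1743 with control siRNA (difference 1.51, limma adjusted p = 6.17e-05). Irf7 and Ifit1 gave differences of 0.80 and 1.10. The count of 39 was 37 with TMM factors, 40 with plain library totals, 37 with edgeR and 45 with DESeq2, and 22 without the libraries of the later number series described at the end, with 0 negative in each.

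**Figure D4:**
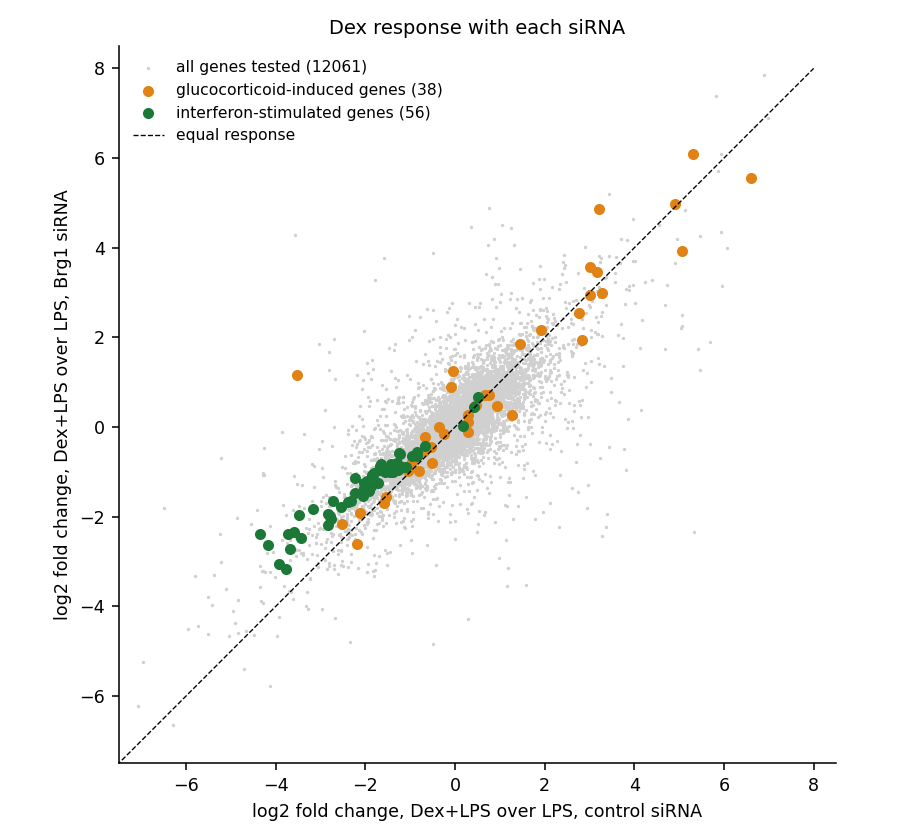
Log2 fold change of Dex+LPS over LPS with control siRNA (horizontal) and with Brg1 siRNA (vertical) for the genes tested (grey; 2 lie outside the plotted range), with 38 glucocorticoid-induced genes in orange and 56 interferon-stimulated genes in green. The dashed line marks equal response: 55 of the 56 green points lie above it.

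Other genes differed in ways the list does not cover. Fos rose with Brg1 siRNA, as given above, and fell with control siRNA, from 442, 407 and 489.9 to 379, 268, 334 and 331 (difference 1.82, SE 0.23, limma adjusted p = 0.000179). Rnd1, a small GTPase, likewise read 384, 361 and 399 against 520.5, 526, 562 and 639.9 with Brg1 siRNA and 1692, 1562 and 2048 against 762, 799, 712 and 911 with control siRNA (difference 1.70). In both genes the LPS samples with Brg1 siRNA were the lowest of the 4 groups. Il10 fell to a like level with either siRNA (31.4 to 42.3 and 29.8 to 48.9), from 72.3 to 94.8 with Brg1 siRNA and 285 to 308 with control siRNA (difference 1.82, limma adjusted p = 0.000387). The interleukin-1 receptor antagonist Il1rn went from 10934, 9295 and 10846 to 3269, 3033, 3034 and 2571, against 14412 to 16437 and 1302 to 1788 with control siRNA (difference 1.57). Pfkfb3 rose more with Brg1 siRNA, by 3.59 against 1.89, and ended at 10467 to 11782 against 10942 to 13764. Marveld1, a membrane protein, rose by 3.83 against 2.42, from a mean of 97.1 against 418 to 1394 against 2240.1.

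Responses smaller or more negative with Brg1 siRNA included Fabp4, a fatty acid binding protein, which went from 1042, 1043 and 989 to 2622, 2808, 2709.9 and 2721 with Brg1 siRNA and from 233, 347 and 331 to 2566, 3482, 2593 and 2564 with control siRNA (difference -1.80, SE 0.17, limma adjusted p = 5.46e-06). The Dex+LPS levels overlapped and the LPS levels did not. The adhesion molecule Sele rose by 3.14 with Brg1 siRNA, from 32.4, 27.4 and 25, and by 5.95 with control siRNA, where LPS samples read 2.25, 3.47 and 0 (difference -2.81). Plxna2, a semaphorin receptor, rose by 0.40 against 1.80 (difference -1.41). Among the classical targets, Tsc22d3 rose by 5.56 against 6.61 (difference -1.05, limma adjusted p = 0.000966) and Mt2 by 4.86 against 3.21 (difference 1.65). Their levels ran the other way. With Dex+LPS, Tsc22d3 had a mean of 4786 with Brg1 siRNA against 3220.1 with control siRNA, and Mt2 5102 against 9776. With LPS the means were 101 against 32.6 for Tsc22d3 and 171 against 1039 for Mt2. For Fkbp5 (6.09 against 5.31), Per1 (2.99 against 3.28), Klf9 (2.95 against 3.02) and Dusp1 (2.16 against 1.91) the difference missed the threshold (limma adjusted p = 0.0772, 0.521, 0.913 and 0.549). Tnf fell by more with Brg1 siRNA, -1.26 against -0.88 (difference -0.39, limma adjusted p = 0.00544), and Csf2, at -6.64 and -6.30, did not pass (0.661 by limma). Differences for Ccl2, Mertk, Csf3, Gpr155 and Rnf144b passed narrowly and lost the call in 15, 14, 17, 11 and 10 of 26 alternatives. St3gal1 was listed at 0 in all 7 Brg1 siRNA samples and in the 3 control siRNA LPS samples, and at 378, 2206, 842 and 213 with control siRNA and Dex+LPS; the edgeR and DESeq2 tests made no call for it.

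**Figure D5:**
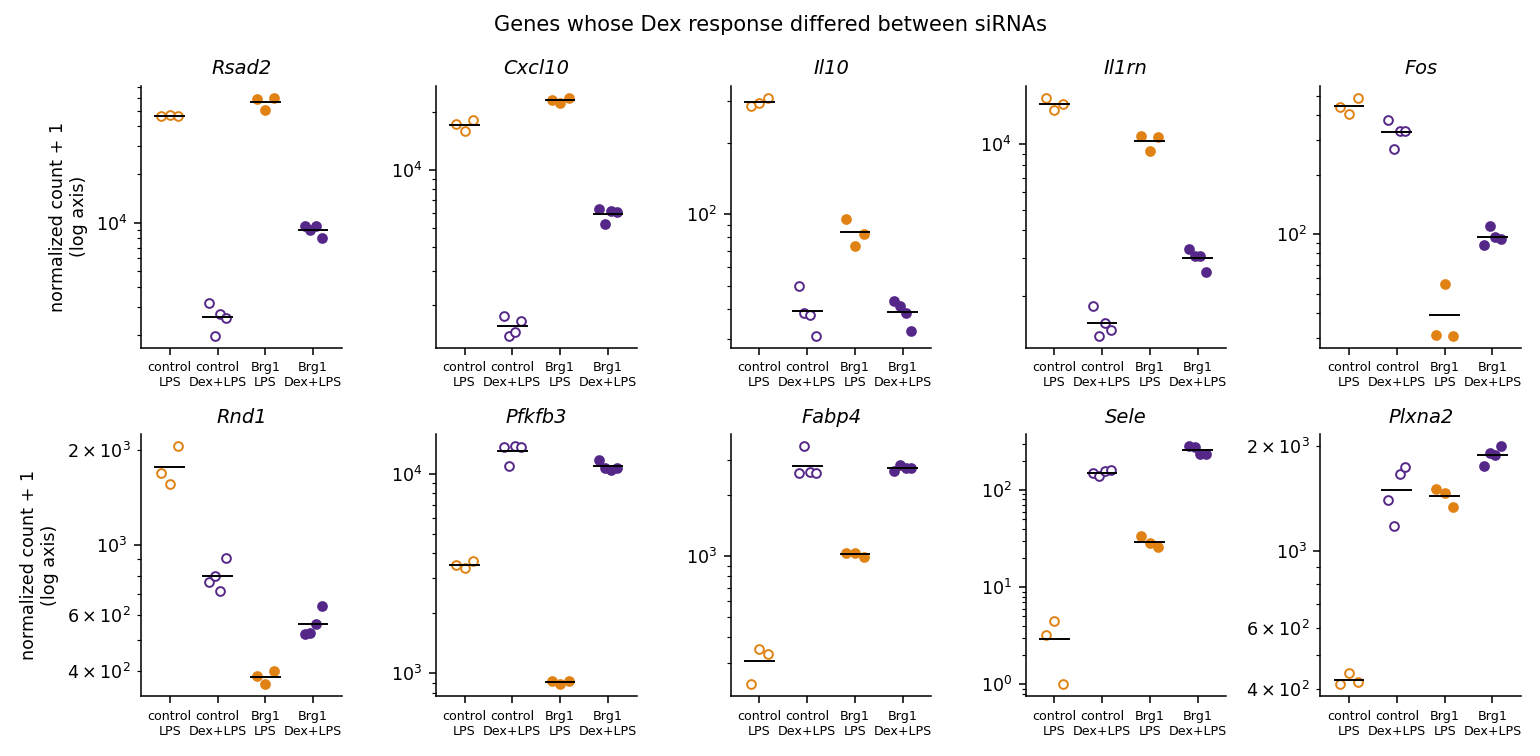
Normalized counts plus 1 (log axis) of 10 genes whose Dex response passed the test of a difference between siRNAs, in each sample with control siRNA (open) and Brg1 siRNA (filled), LPS in orange (n = 3) and Dex+LPS in purple (n = 4); bars are group means. Fos and Rnd1 go down from LPS to Dex+LPS with control siRNA and up with Brg1 siRNA, and Rsad2 and Cxcl10 go down in both, by less with Brg1 siRNA.

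The label of the cells was checked against macrophage genes. Adgre1, a surface receptor of mature macrophages, read 73087 to 74712 with LPS and 46262 to 51059 with Dex+LPS, Csf1r 22776 to 26041 and 22169 to 25835, Lyz2 221838 to 235446 and 190041 to 201888, and Itgam 8179 to 8645 and 10742 to 12006. Cd68 read 15959 to 17066 and 12342 to 13959. By limma Adgre1 fell, Itgam rose, Csf1r did not pass, and Lyz2 fell by 0.21 on the log2 scale, which is less than the shift between scalings. Of 32 tested lineage and core macrophage genes 13 were lower and 4 higher (median -0.22), beside 23.0% and 21.3% of all genes tested. With plain library totals 6 were lower and 11 higher. Tyrobp, a member of that list, had 0 reads over the LPS samples and 647 over the Dex+LPS samples, and the reason was not tested. Of 93 listed markers of 7 other cell types, 60 were in the table, and 9 were listed at 0 in all 7 samples: Ly6g of neutrophils, Cd79a of B cells, Klrd1 of NK cells, Cd209a and Siglech of dendritic cells, Cpa3 of mast cells, Slc4a1 and Epor of erythroid cells and Thy1 of fibroblasts. Summed markers of mast cells, basophils and eosinophils were 0.00301% to 0.00330% of the counts with LPS and 5.24e-04% to 8.82e-04% with Dex+LPS, through Kit, Ccr3 and Hdc. Those of B cells were 4.38e-04% to 6.75e-04% and 2.57e-04% to 5.55e-04%, mostly Cd22 (76.1 to 113 and 34.2 to 76.9). Those of T and NK cells were 4.80e-04% to 0.00104% and 4.76e-04% to 0.00122%, mostly Cd4 (62.3 to 175 and 50.8 to 164). Those of erythroid cells and platelets were 0.00183% to 0.00251% and 8.80e-04% to 0.00177%, mostly Pf4. Those of fibroblasts and endothelium were 0.0103% to 0.0119% and 0.00431% to 0.00499%, through Kdr and Pdgfrb, those of dendritic cells 0.0280% to 0.0309% and 0.0197% to 0.0262%, and those of neutrophils 0.0191% to 0.0208% and 0.00946% to 0.0101%. The neutrophil sum followed Csf3r (3315 to 3830.4 and 889.7 to 1007), while 2 of its 8 tested members rose, S100a8 (94.8 to 136 and 378 to 459) and Mmp8 (27.3 to 27.4 and 36.9 to 65.2), and 4 fell. The part of these marker levels in the results was not tested, and in such bulk samples fewer cells of a type and less RNA per cell cannot be told apart. Mitochondrial transcripts were 0.856% to 1.19% of the counts with LPS and 0.969% to 1.44% with Dex+LPS.

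LPS replicate 2 and Dex+LPS replicate 4 carry library numbers of a later series than the other 5, which the labels do not explain. Dex+LPS replicate 4 stood somewhat apart, with Pearson r of log2 values of 0.959 to 0.9637 to the other 3, which correlated at 0.9699 to 0.9724 among themselves. LPS replicate 2 had an r of 0.9698 and 0.966 to LPS replicates 1 and 3, which correlated at 0.9736 with each other. Of the 2575 genes called higher, 2549 had the same sign in the 1 against 1 later libraries and 2575 in the earlier ones, and of the 2777 called lower, 2768 and 2777. Without the later libraries 2338 genes were higher and 2661 lower, and 4617 of the 5352 calls were made again in the same direction.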

How the data were processed

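Gene-level RNA sequencing values of 20 samples in 6 groups were used, with groups and replicate numbers from the labels. The deposited values are size-factor normalized counts, a signal per gene. Salmon 1.4.0, DESeq, DESeq2, R 4.1.0, mm10 and GRCm38.p6 are named in the submitters' processing notes, without their roles. The authors' deposited table also holds log2 fold changes and adjusted p-values. The labels' protocols name a stranded mRNA kit and also rRNA depletion. Dividing by the value of 1 read gave whole reads within 0.01 for 99.95% of values above 0, and 13.69 to 18.71 M reads a library. Ratio intervals (95%) and the floor of 3 reads cover counting error only.

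Genes with at least 10 normalized counts in at least 3 samples were tested as log2(value + 1), with 1 row lacking a symbol kept under its gene ID. The fold changes are on that scale, which understates changes of low genes. One limma 3.58.1 model (R 4.3.3) over the 6 groups gave the Dex response with each siRNA and their difference, with Benjamini-Hochberg adjustment over all genes and a threshold of 0.05. The scripts were tested on simulated data. Other pseudocounts, filters, scalings and designs, left-out replicates, edgeR 4.0.16 and DESeq2 1.42.0 on the recovered reads were tried as alternatives.

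Named genes were the 15 largest rises and falls with samples that do not overlap and a mean of at least 100, the 4 largest called changes in each list, the 10 largest gains and losses in counts, the 10 largest differences between siRNAs in each direction, and a fixed set of glucocorticoid and LPS response genes; a few of these are not reported here. The members and lists were chosen with earlier results of these data known. Same-numbered replicates showed no sign of pairing (correlations of deviations 0.0335, -0.1 and 0.0103), while the 2 libraries of the later number series correlated at 0.2391, the highest of the 12 pairs. With so few samples this cannot exclude that same-numbered replicates share an animal or culture.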

Additional observations from a re-analysis of the deposited data

Results flagged for a closer look

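Among 93 genes checked, 1 Dex+LPS sample with Brg1 siRNA lay far from the other 3 in 8, where chance alone flags about 1 in 20 groups. In 6 of the 8 it was replicate 4, of the later library numbers: Lyve1 at 185, Mt2 at 7207, Ifnb1 at 11.1, Per1 at 1291, Fth1 at 241720.4 and Cd83 at 659 normalized counts. Glipr2 stood apart in replicate 3, at 169.9, and Cxcl10 in replicate 2, at 5259. Over all 12061 genes tested a Dex+LPS sample lay as far from the others in 975, a share near that of the 8 in 93, and in 550 of the 975 (56.4%) it was replicate 4.

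In 40 of the 93 genes the Dex response differed between siRNAs by limma at an adjusted p under 0.05, beside 3.97% of all genes tested. The share is set in part by the choice of genes, since the 10 largest differences in each direction are among them. Differences were positive on the log2 scale, a smaller fall or larger rise with Brg1 siRNA, in the interferon-linked genes Rsad2 (1.54), Cxcl10 (1.51), Irf7 (0.80) and Ifit1 (1.10). They were also positive in Mt2 (1.65), Marveld1 (1.41), Serpinb2 (0.89), Mmp13 (1.31), Ccl7 (1.48), Ptgs2 (1.02), Ccl2 (0.63), Mertk (0.41), Pfkfb3 (1.71), Clic4 (0.50), Il10 (1.82), Fos (1.82), Zbtb21 (1.77), Rnd1 (1.70), Glipr2 (1.67), Slc16a6 (1.62), Il1rn (1.57) and Ccl4 (0.56). They were negative in Tsc22d3 (-1.05), Susd2 (-1.20), Klhl6 (-0.74), AW112010 (-0.78), Ncf1 (-0.37), Sdc4 (-0.43), Sla (-0.63), Tnf (-0.39), Lpl (-0.28), St3gal1 (-9.28), Sele (-2.81), Coq8a (-2.40), Fabp4 (-1.80), Plxna2 (-1.41), Gpr155 (-1.26), Csf3 (-1.15), Rnf144b (-1.09) and Polrmt (-1.07). The fitted value of St3gal1 depends on the pseudocount, since it was listed at 0 in all groups but 1.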

How the results depend on the processing

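With plain library totals the Dex response with Brg1 siRNA had 5388 genes higher and 1232 lower, and that with control siRNA 5269 and 1647; Cox4i1, Cox7a2, Atp5b, Rpl5, Rps27a and Fth1 then turned to 0.01, 0.06, 0.06, 0.05, 0.06 and 0.02 on the log2 scale, by construction of the scaling. Positive differences between siRNAs numbered 206 without the libraries of the later number series. Negative ones numbered 253 with DESeq2, 88 with only the groups of the comparison, 270 with the library number series as a term and 94 without those libraries; the cause was not tested. Leaving out 1 replicate gave 2238 to 2470 genes higher and 2376 to 2763 lower with Brg1 siRNA, 2485 to 2798 and 2726 to 3075 with control siRNA, and 236 to 347 positive and 110 to 169 negative differences. With the replicate block the counts were 2592 and 2939 with Brg1 siRNA, 2849 and 3219 with control siRNA, and 382 and 188 for the difference. No pairing by replicate number was seen, though 3 against 4 samples cannot exclude it. Under the other settings run, the counts were within 1.5 times those reported. Genes with a few reads in a group carry wide intervals, and 3 against 4 samples limits what the differences between siRNAs can show.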
